A study of Homo sapiens with 4 samples.

Results

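Of 123975 genomic regions in which a peak of the phosphorylated histone H2A.X (γH2AX) was called in at least 1 of 4 libraries, 1924 had a peak in both libraries treated with the SUV39H2 inhibitor OTS186935 and in neither library without it. They are called inhibitor-only regions here, a name that refers to peak calls and not to the absence of signal elsewhere. The cells were SK-UT-1, a single cell line grown from a uterine leiomyosarcoma, which is a malignant tumour of smooth muscle. The inhibitor-treated cells received either 1 µM OTS186935 alone or 1 µM OTS186935 together with 0.5 µM doxorubicin (the combination). The other cells received 0.5 µM doxorubicin alone or 0.1% DMSO, the vehicle. Doxorubicin is a topoisomerase II poison; the series title names a PARP inhibitor instead, which none of these libraries received according to their labels. Chromatin immunoprecipitation followed by sequencing (ChIP-seq) with an antibody to γH2AX gave 1 library per condition. Without replicates, no test between conditions could be made, and all comparisons are of values set side by side. RNA was not analysed here, and the cell line's identity was not checked against marker genes.

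H2A.X is a histone variant whose tail is phosphorylated by kinases of the DNA damage response in chromatin around double-strand breaks and stalled replication forks, and the phosphorylated form, γH2AX, is read as a mark of such damage. SUV39H2 methylates lysine 9 of histone H3 (H3K9), the modification that heterochromatin proteins bind in silent, repeat-rich DNA. The enzyme has also been reported to methylate H2A.X itself.

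The regions were chosen by the peak calls themselves, from the lists in full. Peaks of the 4 lists that overlapped or touched on chromosomes 1 to 22 and X were merged into union regions, and a region was kept if it held peaks of the OTS186935 and combination lists and none of the doxorubicin or DMSO list. The inhibitor-only regions were 1.55% of all union regions and covered 1.07 Mb, with a median width of 506 bp. Because of that choice, the counts and peak values below describe them and support no statement on the drugs. Positions are from the submitters' build hg38 and from RefSeq genes of GRCh38.p14.

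Promoter sequences are shown for the highest-ranked regions that lay on the start of a protein-coding gene, where the called peak and the gene's start coincide. Each runs from 250 bases before the transcription start to 50 bases after it, 5′ to 3′ on the gene's strand, as RefSeq gives it for GRCh38.p14. Capitals mark matches, on either strand, to any of the 6 motifs that were searched. These were the TATA box as TATAAA, the CCAAT box by its own letters, the GC box as GGGCGG, the E-box as CACGTG, the cyclic AMP response half-site as TGACGT and the telomere repeat unit as TTAGGG; in KISS1 overlapping TATAAA matches on opposite strands run together. The GLRA3 promoter is chr4:174829198-174829497 on the minus strand, the UGT1A1 promoter is chr2:233760020-233760319 on the plus strand, and the KISS1 promoter is chr1:204196442-204196741 on the minus strand.
GLRA3: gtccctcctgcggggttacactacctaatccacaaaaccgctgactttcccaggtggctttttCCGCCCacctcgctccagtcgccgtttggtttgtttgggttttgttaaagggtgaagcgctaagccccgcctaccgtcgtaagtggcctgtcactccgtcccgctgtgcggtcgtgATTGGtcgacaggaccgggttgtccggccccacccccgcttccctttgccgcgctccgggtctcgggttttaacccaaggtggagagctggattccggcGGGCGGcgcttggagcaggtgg
UGT1A1: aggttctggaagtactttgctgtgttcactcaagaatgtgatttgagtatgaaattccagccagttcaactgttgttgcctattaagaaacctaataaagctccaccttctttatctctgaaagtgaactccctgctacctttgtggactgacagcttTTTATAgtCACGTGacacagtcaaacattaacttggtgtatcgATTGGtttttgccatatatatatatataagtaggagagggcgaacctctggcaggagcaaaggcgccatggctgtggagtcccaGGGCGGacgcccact
KISS1: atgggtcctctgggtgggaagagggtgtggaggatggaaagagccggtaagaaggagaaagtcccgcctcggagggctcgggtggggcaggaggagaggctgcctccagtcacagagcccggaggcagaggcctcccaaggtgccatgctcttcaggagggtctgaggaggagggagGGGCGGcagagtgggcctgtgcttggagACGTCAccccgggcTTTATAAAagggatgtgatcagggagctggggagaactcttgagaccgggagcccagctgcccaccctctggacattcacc

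The GLRA3 sequence was 62.0% G or C with 26 CpG dinucleotides, and it held a CCAAT box and GC boxes and no match to the TATA box. The UGT1A1 sequence was 44.0% G or C with 6 CpG dinucleotides, and it held a TATA box, an E-box, a CCAAT box and a GC box. The KISS1 sequence was 63.3% G or C with 9 CpG dinucleotides, and it held a TATA box, a cyclic AMP response half-site and a GC box. A match is a description of the letters and not a binding site.

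Inhibitor-only regions were 1 of 15 combinations of libraries in which a region could be called. They made up 6.91% of the 27851 regions called in exactly 2 lists (interval 6.61 to 7.21%). All intervals beside shares are exact Clopper-Pearson 95% intervals and cover counting error only. Regions called in doxorubicin and the combination alone, the corresponding set for doxorubicin, numbered 1295. Seen from the OTS186935 list, 8.65% of the 22230 regions without a doxorubicin or DMSO peak also had a combination peak (8.29 to 9.03%). The corresponding share for doxorubicin was 7.78% of 16645 regions (7.38 to 8.20%). Inhibitor-only regions were 3.24% of the regions called with OTS186935 and 6.62% of those called with the combination.

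The numbers in these sets moved with list length. The deposited lists held 62008 rows for OTS186935, 29619 for the combination, 48594 for doxorubicin and 76870 for DMSO. When each list was cut to the same 29561 rows by −log10 p, 2165 regions were inhibitor-only and 2171 were called in doxorubicin and the combination alone. The excess over the doxorubicin set was thus absent at equal length. The share among regions called in exactly 2 lists was then 15.0%. The excess was present under settings that did not make the lists equally long. With a limit of 3.08 on −log10 p in every list, the numbers were 1995 and 1351. At a −log10 q of 5 or more, a value explained below, they were 190 and 64. Of the 1924 inhibitor-only regions, 835 were found again with lists of equal length. The other 1330 of the 2165 lay in union regions of the full lists with a doxorubicin or DMSO peak that the cut left out. The regions named below therefore belong to the lists as deposited.

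**Figure D1:**
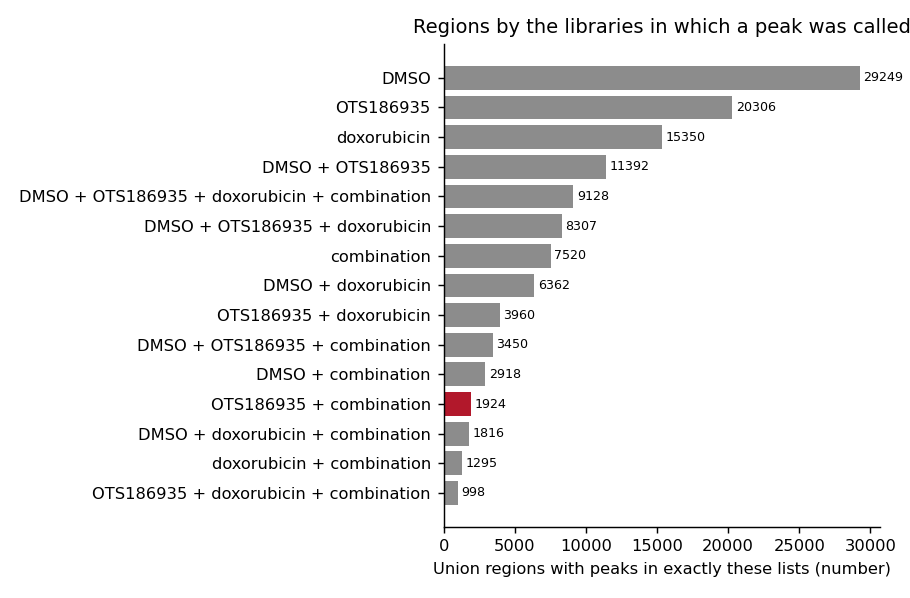
Number of union regions (horizontal axis) called in exactly the libraries named on the vertical axis, with the inhibitor-only regions in red. The 1924 inhibitor-only regions are more than the 1295 called in doxorubicin and the combination alone and fewer than the 3960 called in OTS186935 and doxorubicin alone.

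Most inhibitor-only peaks were weak. MACS2, the peak caller the submitters name, gives each peak a fold enrichment over local background and a −log10 q, where q is the false discovery rate of the peak within its library. The median fold was 4.30 in OTS186935 (range 1.89 to 8.84) and 4.20 in the combination (2.39 to 11.3), the same medians as over all rows of those lists. The median −log10 q was 2.87 in OTS186935, against 2.99 over all its rows, and 2.41 in the combination, against 2.61 over all its rows. The number of fragments piled up at a summit, which was worked out from the fold and the −log10 p of each row, had a median of 6 in OTS186935 (3 to 52) and 7 in the combination (4 to 27). A peak of this size thus rests on a handful of fragments. A −log10 q of 3 or more in both libraries was reached by 395 regions (20.5%), and a value of 5 or more by 37 (1.92%).

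The paired peaks of a region were mostly at nearly the same place. Rows had to overlap or touch to form a region, so the rule itself keeps the summits close. The distances and overlaps below describe the regions and do not measure how well the libraries agree. In 1908 of the 1924 regions (99.2%) each of the libraries gave a single row. The summits lay a median of 74 bp apart (0 to 939 bp), and 1187 pairs (61.7%) lay within 100 bp, against a median row width of 419 bp in OTS186935 and 374 bp in the combination. The rows overlapped by at least 50% of both widths in 1560 regions (81.1%). Summits were closer where the peaks were stronger. The median summit distance was 100 bp in the 942 regions whose lower −log10 q was 1 to 2, 75 bp in the 587 at 2 to 3, 43.5 bp in the 358 at 3 to 5 and 37 bp in the 37 at 5 or more. Across the 1924 regions, which share both libraries, Spearman's rho between the folds was 0.305, and across the 9128 regions called in all 4 lists it was 0.426; neither carries a p-value here.

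**Figure D2:**
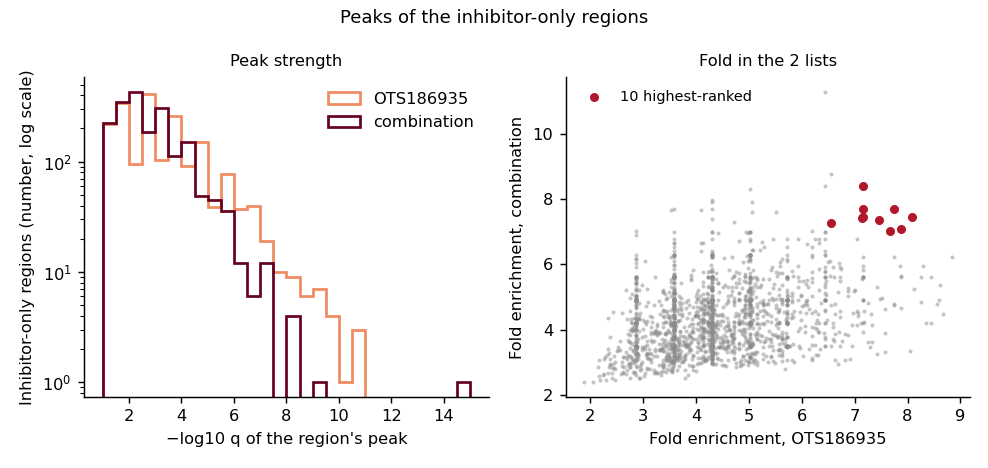
Left, number of inhibitor-only regions (log scale) by the −log10 q of their peak in OTS186935 (orange) and in the combination (dark red), in bins of 0.5. Right, fold enrichment of each of the 1924 regions in OTS186935 (horizontal) and the combination (vertical), with the 10 regions of highest rank in red; vertical lines of points are peaks with few fragments over the floor of the background. Most regions lie at low values in both lists.

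The edge of the rule was as thin as these values. One of the weakest regions inside it, chr7:436504-437046, had a −log10 q of 1.00 in OTS186935 and 1.35 in the combination, where 1.00 was the lowest value any list held. Just outside it, chr1:5780801-5781345 had −log10 q values of 3.42 in OTS186935 and 2.31 in the combination and was left out by a doxorubicin peak at 1.01. Likewise chr7:72335713-72336632, at 3.95 in OTS186935 and 2.50 in the combination, was left out by a DMSO peak at 1.00.

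The strongest inhibitor-only regions at gene ends lay at genes of differing kinds, from a mitochondrial carrier to a neurotransmitter receptor and a liver enzyme. Regions were ranked by the lower of their −log10 q values. A gene end is here the stretch within 1 kb of either end of a protein-coding gene. The highest-ranked region of all, chr9:37904807-37905237, lay upstream of SLC25A51, which encodes the mitochondrial carrier of NAD. Its fold was 8.08 in OTS186935 and 7.47 in the combination, on 11 and 13 fragments, and its summits lay at -929 and -896 bp from the transcription start. The nearest doxorubicin peak was 23.7 kb away and the nearest DMSO peak 10.9 kb away. No peak of the other lists thus lay within 10 kb of it.

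At 3 starts the region overlapped the promoter printed above. GLRA3, which encodes an alpha subunit of the glycine receptor, had a fold of 6.44 in OTS186935 and 8.41 in the combination over chr4:174829071-174829553, on 8 and 11 fragments. Its summits were at -93 and 6 bp from the start, and the nearest DMSO peak was 84.7 kb away. UGT1A1, the liver enzyme that conjugates bilirubin, had folds of 7.04 in OTS186935 and 6.78 in the combination over chr2:233760147-233760663, on 9 fragments in each, with summits at 75 and 59 bp. Its gene shares its last exons with the other UGT1A genes, so the region also lies within the bodies of overlapping family members. KISS1, the precursor of the kisspeptins that act on the reproductive axis, had folds of 6.98 in OTS186935 and 5.18 in the combination over chr1:204196219-204196826, on 14 and 12 fragments. Its summits lay at 12 and -6 bp. In these 3 promoters the summits of the libraries therefore lay within 99, 16 and 18 bp of each other.

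Other high-ranked regions at gene ends did not lie over a listed start. ALDOC, the brain form of the glycolytic enzyme aldolase, carried chr17:28573584-28573978 at its 3′ end, with folds of 6.70 in OTS186935 and 6.04 in the combination. IFI27L2, of a family of interferon-induced mitochondrial proteins, carried chr14:94128332-94129345 within its 1.82 kb body, with folds of 8.84 in OTS186935, the highest of all inhibitor-only regions there, and 6.22 in the combination. The 3′ ends of ABL2, a non-receptor tyrosine kinase, VPS8, a subunit of an endosomal tethering complex, and AKAP6, an anchor of protein kinase A in muscle, carried regions with folds of 5.01 to 5.73 in OTS186935 and 6.11 to 7.00 in the combination. SNRPN, an imprinted gene for a protein of small nuclear ribonucleoproteins, had its region at the upstream edge of its annotated extent, chr15:24823408-24823846, with folds of 6.44 in OTS186935 and 6.30 in the combination. PECAM1, an adhesion molecule of endothelium and platelets, had folds of 5.12 in OTS186935 and 5.40 in the combination, and BCAS1, a protein of myelinating cells, had 5.06 in OTS186935 and 7.91 in the combination. The start of neither gene was in the promoter table, so these were not placed at a start or a 3′ end.

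Over all genes, 135 of 19974 protein-coding genes (0.676%) had an inhibitor-only region at an end. Of these, 112 were in the promoter table, which gives the transcription start, and in 67 of them the region lay within 1 kb of that start. In 86 of the 135 there was no doxorubicin or DMSO peak region at either end. Of all genes, 49.9% had a union region of any list at an end. Ends without a doxorubicin or DMSO peak region were therefore common among all genes. Within 1 kb of the start, 76 of the 15812 genes with a known start (0.481%) had an inhibitor-only region, which includes starts inside a gene's annotated extent.

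The promoters as a group were few. An inhibitor-only region overlapped 36 of the 15812 promoters, among them those of ACTN2, a sarcomeric actinin, SCNN1B, a subunit of the epithelial sodium channel, LRP2, a kidney endocytic receptor, DSP, the desmosomal plaque protein, and PPY, pancreatic polypeptide. Their median content of G and C was 61.8%, against 65.0% in the 2994 promoters overlapped by any union region and 62.7% in all promoters. Their median number of CpG dinucleotides was 14.5, against 23 and 22 in those sets. TATAAA was found in 7 of the 36 (19.4%, 8.19 to 36.0%), against 9.64% of all promoters, and the 7 included UGT1A1, KISS1, PGAM2 and the keratin-associated protein genes KRTAP4-12 and KRTAP10-9. CCAAT was found in 16 (44.4%) against 36.3% of all promoters, and GGGCGG in 22 (61.1%) against 58.5%. CACGTG was found in 2 (5.56%) against 8.87%, TGACGT in 1 (2.78%) against 9.66%, and TTAGGG, the telomere repeat unit, in 5 (13.9%) against 8.63%. With 36 promoters these shares carry wide intervals, and the 18 promoters overlapped by regions of doxorubicin and the combination alone also had a low median number of CpG dinucleotides, 10.5. TATAAA was found in 12 of the 72 promoters overlapped by regions of DMSO and the combination alone (16.7%). In the other sets counted its share ran from 4.76 to 10.0%.

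One inhibitor-only region overlapped microRNA hairpins. It was chrX:134546222-134546687, within MIR503HG, the noncoding host gene of a microRNA cluster that restrains cell cycle genes, and it reached into the hairpins of MIR424 and MIR503 on the minus strand. Its peak had a fold of 2.93 in OTS186935 and 4.51 in the combination, on 11 fragments in each. The −log10 q was 1.90 in OTS186935 and 3.43 in the combination, so it ranked only 1208 of 1924. The nearest doxorubicin peak was 1226 bp away and the nearest DMSO peak 4057 bp away. The mature sequences, from RefSeq, are printed because both 5p arms share the start of their seed; capitals mark the seed, bases 2 to 8.
hsa-miR-424-5p: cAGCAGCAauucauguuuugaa
hsa-miR-503-5p: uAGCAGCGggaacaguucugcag
hsa-miR-424-3p: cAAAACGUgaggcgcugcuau
hsa-miR-503-3p: gGGGUAUUguuuccgcugccagg

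Away from gene ends, the highest-ranked regions lay in gene bodies or far from genes. AAK1, a kinase of the clathrin adaptor, carried chr2:69518904-69519278 with folds of 7.14 in OTS186935 and 7.41 in the combination. PDLIM3, an actin-associated protein of muscle, carried chr4:185506362-185506791 with 7.45 in OTS186935 and 7.35 in the combination, and its body held no doxorubicin or DMSO peak region. CNTN4, an adhesion protein of axons, had 7.74 in OTS186935 and 7.70 in the combination, and WARS2, the mitochondrial tryptophan tRNA synthetase, had 7.16 in OTS186935 and 8.40 in the combination. GCM2, a transcription factor of parathyroid development, had 7.67 in OTS186935 and 7.03 in the combination, and PHACTR1, a regulator of phosphatase and actin, had 7.88 in OTS186935 and 7.07 in the combination.

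Regions outside protein-coding genes were also among the highest-ranked. The summits at chr2:7989747-7990254, which is 691.8 kb from any protein-coding gene, fell on the same base in both lists, with folds of 7.16 in OTS186935 and 7.70 in the combination. At chr8:91901804-91902247, 52.7 kb from a protein-coding gene, the folds were 7.16 in OTS186935 and 7.46 in the combination, and at chr6:40923309-40923693, in the uncharacterised gene LOC101929555, they were 6.55 in OTS186935 and 7.28 in the combination. The highest combination fold of all, 11.3, stood at chr2:125720934-125721491 in the noncoding gene LINC01889, on 18 fragments and with a −log10 q of 14.6. The OTS186935 peak there had a fold of 6.44 on 8 fragments. The nearest protein-coding gene was 799.7 kb away.

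Position relative to genes was close to that of all called regions, with a lower share at gene ends in the lists as deposited. Of the inhibitor-only regions, 1072 (55.7%, 53.5 to 58.0%) overlapped a protein-coding gene body, against 57.2% of all union regions. A further 220 (11.4%) lay in another annotated gene only, and 632 (32.8%) lay in no annotated gene. At gene ends the share was 6.70% (129 regions, 5.63 to 7.92%), against 8.98% of all union regions. Regions of OTS186935 alone had 6.51% at gene ends and regions of doxorubicin and the combination alone 6.02% (4.79 to 7.46%), whereas regions of doxorubicin and DMSO alone had 9.15% (8.45 to 9.88%). The lower share at gene ends was thus held in common with the sets of OTS186935 alone and of doxorubicin and the combination alone. Regions called in OTS186935, doxorubicin and the combination, also without a DMSO peak, had 8.72% (7.04 to 10.6%). With lists of equal length the share at gene ends was 10.3% (9.05 to 11.7%) for inhibitor-only regions and 9.08% for all union regions. With peaks of −log10 q of 5 or more in each list it was 11.6% of 190 regions (7.40 to 17.0%) and 10.2% of all union regions. The lower share was therefore not seen under either of these settings, where the intervals included the share of all union regions.

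**Figure D3:**
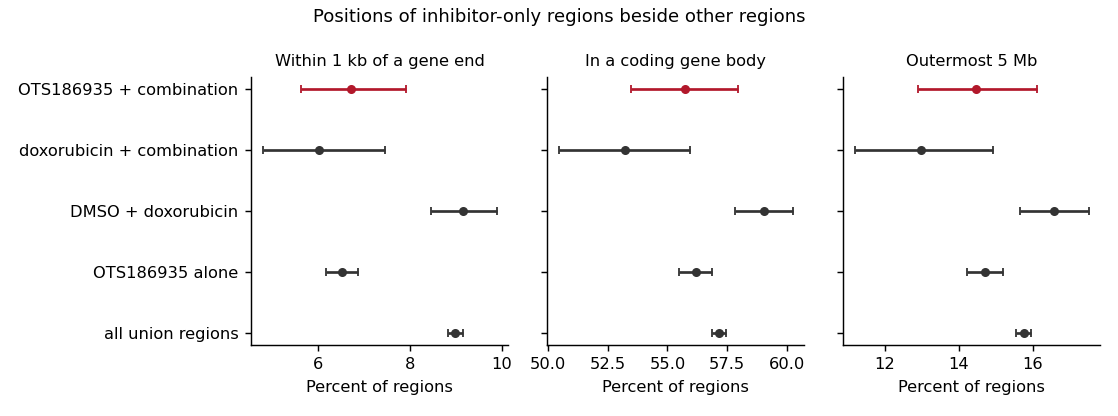
Percent of regions within 1 kb of an end of a protein-coding gene (left), in a protein-coding gene body (middle) and in the outermost 5 Mb of a chromosome (right), with exact 95% binomial intervals as bars, for inhibitor-only regions (red, top row), 3 other sets and all union regions (bottom row). The axes do not start at 0. At gene ends the inhibitor-only regions lie at 6.70%, beside 6.51% for OTS186935 alone and 8.98% for all union regions.

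Genes with an inhibitor-only region were longer than genes in general. An inhibitor-only region lay in the body of 1005 of 19974 genes (5.03%), whose median length was 92.9 kb, against 24.2 kb for all genes. The share of genes with 1 or more was 0.778% in genes under 10 kb, 3.05% at 10 to 50 kb, 9.05% at 50 to 200 kb, 17.3% at 200 to 500 kb and 28.0% at 500 kb or more. Per Mb of gene body the order was the opposite, 1.66, 1.24, 1.01, 0.708 and 0.466 regions in the same length classes. Union regions of any kind thinned out with length as well, and inhibitor-only regions were 1.09% of them in the shortest genes and 1.71% in the longest.

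In 905 genes there was 1 inhibitor-only region in the body, in 80 there were 2, in 16 there were 3 and in 4 there were 4. The 4 were ADARB2, a brain relative of the RNA-editing enzymes, ASIC2, an acid-sensing ion channel, ZNF423, a zinc finger transcription factor of cerebellar and fat development, and RANBP2, a nuclear pore protein. ASIC2, whose body spans 1144 kb, held folds of 4.01 to 6.44 in OTS186935 and 3.46 to 6.78 in the combination, and its strongest region, chr17:33734073-33734494, was 139.1 kb from the nearest doxorubicin peak and 47.9 kb from the nearest DMSO peak. ADARB2, of 560.2 kb, held folds of 4.39 to 6.19 in OTS186935 and 3.01 to 5.76 in the combination. ZNF423, of 371.8 kb, held 2.46 to 5.15 in OTS186935 and 2.46 to 3.79 in the combination. The annotated extent of RANBP2, 1123 kb, encloses SH3RF3, which held 3 of the 4 regions, so the 2 genes cannot be told apart there. Other regions in the 4 genes lay close to peaks of the libraries without OTS186935. The shortest distances were 0.81 kb in ASIC2 (doxorubicin), 0.71 kb in ADARB2 (DMSO), 0.002 kb in ZNF423 (DMSO) and 0.332 kb in RANBP2 (doxorubicin). The 4 bodies held between 44 and 105 union regions each, so the inhibitor-only ones were a small part of what was called in them.

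In 68 of the 1005 genes no doxorubicin or DMSO peak region lay in the body. Over all genes, 78.2% had a union region of any list in the body, and the other genes had none. A body without a doxorubicin or DMSO peak region was therefore not particular to the 68. Besides PDLIM3, ALDOC and IFI27L2, the 68 included EGLN3, a prolyl hydroxylase of the hypoxia pathway, and MSX1, a homeobox transcription factor. They also included CDH19, a cadherin, KLK4, a kallikrein protease, and SF3B4, a splicing factor. CDH19 had folds of 5.01 in OTS186935 and 4.90 in the combination at chr18:66596642-66597145, and its nearest DMSO peak was 80.1 kb away.

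Genes that read, write or erase H3K9 methylation were held against the same counts. Of 31 genes for H3K9 methylation and heterochromatin, 0 had an inhibitor-only region at an end, against 0.676% of all genes, and 4 had 1 or more in the body (12.9%), against 5.03%. They were KDM4C, an H3K9 demethylase, EHMT1, an H3K9 methyltransferase, PPHLN1, a subunit of the HUSH silencing complex, and ATRX, a chromatin remodeller of heterochromatin. KDM4C held 2 regions, with folds of 4.87 and 2.78 in OTS186935 and 4.57 and 4.20 in the combination. ATRX had folds of 5.73 in OTS186935 and 4.20 in the combination, EHMT1 had 3.27 in OTS186935 and 3.88 in the combination, and PPHLN1 had 4.30 in OTS186935 and 4.20 in the combination. Of 570 zinc finger genes, whose clusters are a known home of H3K9 methylation, 20 (3.51%) had a region in the body and 1, ZNF385B, at an end; of the 262 on chromosome 19, 8 (3.05%) had 1 in the body and 0 at an end. ZNF331 had folds of 6.61 in OTS186935 and 5.60 in the combination, and ZNF605 had 5.26 in OTS186935 and 4.81 in the combination. The zinc finger share in bodies was below the 5.03% over all genes, and the lists differ in gene length, on which the body count depends. Per Mb of body the zinc finger list gave 0.981 regions and the H3K9 list 1.97, against 0.873 over all gene bodies. Inhibitor-only regions were 1.53% of the union regions in zinc finger bodies and 1.53% of those in all gene bodies. In the H3K9 list they were 5 of 180 (2.78%), a small count.

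Other gene groups with silent chromatin in most tissues lay on both sides of the shares over all genes, 5.03% in the body and 0.676% at an end. Of 61 germline genes, 1 (1.64%) had a region in the body, DMC1, the meiotic recombinase, with folds of 4.76 in OTS186935 and 5.42 in the combination. Of 392 olfactory receptor genes, 3 (0.765%) had 1 in the body, among them OR2C1 with folds of 6.07 in OTS186935 and 4.80 in the combination. Counted gene by gene, inhibitor-only regions were 4 of the 101 union regions in olfactory receptor bodies (3.96%), against 1.53% over all gene bodies. The annotated bodies of OR1J2 and OR1L8 overlap, and the region at chr9:122561884-122562488 was counted in both. The 4 are therefore not separate sites. Of 94 keratin-associated protein genes, 2 (2.13%) had a region at an end, KRTAP4-12 with folds of 3.56 in OTS186935 and 4.20 in the combination and KRTAP10-9 with 2.89 in OTS186935 and 3.64 in the combination. Of 53 clustered protocadherin genes 19 (35.8%) had a region in the body, but their nested bodies share exons and the gamma genes shared the regions at chr5:141454624-141455044 and chr5:141371757-141372479. The count of protocadherins is therefore not a count of separate sites.

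Damage response genes gave small counts, to be read against 5.03% of all genes with a region in the body and 0.676% with 1 at an end. Of 38 genes of homologous recombination and damage signalling, 1 (2.63%) had a region in the body, BRIP1, a helicase that works with BRCA1 and gave folds of 3.58 in OTS186935 and 6.30 in the combination. Of 31 genes of the PARP family and of end joining, 2 (6.45%) had 1 in the body and 1 of these (3.23%) also at an end. PARP10, a mono-ADP-ribosyltransferase, had its region at an end with folds of 3.50 in OTS186935 and 2.76 in the combination, and TNKS, tankyrase, had its region in the body with 4.30 in OTS186935 and 6.30 in the combination. Of 25 p53 target genes and of 32 immediate early and stress genes, 0 had a region at an end or in the body. The same held for 70 replication-dependent histone genes and 84 ribosomal protein genes, which are short. Of 30 interferon response genes, 1, the antiviral GTPase gene MX1, had a region in the body, with folds of 2.86 in OTS186935 and 5.27 in the combination.

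Smooth muscle, neuronal and adhesion genes had regions mostly in gene bodies, where the share over all genes was 5.03%, and at an end that share was 0.676%. Of 23 smooth muscle genes, 3 (13.0%) had 1 in the body and 0 at an end. MYH11, the smooth muscle myosin heavy chain, had folds of 4.98 in OTS186935 and 6.12 in the combination, SYNM, the intermediate filament protein synemin, had 5.86 in OTS186935 and 4.57 in the combination, and VCL, the adhesion plaque protein vinculin, had 4.18 in OTS186935 and 3.32 in the combination. SYNM's region had a DMSO peak 0.44 kb away. Of 88 neurotransmitter receptor genes, 1 (1.14%), GLRA3, had a region at an end and 8 (9.09%) had 1 in the body, among them GRIK4, a kainate receptor subunit, with 5.50 in OTS186935 and 7.62 in the combination, GABRG3, a GABA receptor subunit, with 5.73 in OTS186935 and 6.52 in the combination at the stronger of its regions, and GRID1, a delta glutamate receptor, with 5.73 in OTS186935 and 5.22 in the combination. Of 24 neuronal genes, 1 (4.17%), NEFH, the heavy neurofilament, had a region at an end with 4.27 in OTS186935 and 3.39 in the combination, and RBFOX3 and CAMK2A were among the 3 (12.5%) with 1 in the body. Of 57 adhesion and cadherin genes, 9 (15.8%) had a region in the body and 0 at an end, and CDH23, the tip-link cadherin of hair cells, held 3, with folds of 3.15 to 6.25 in OTS186935 and 3.06 to 4.04 in the combination. Of 22 genes altered in leiomyosarcoma, 2 (9.09%), ATRX and DMD, had a region in the body. These body shares depend on gene length. Per Mb of body the smooth muscle list gave 1.51 regions and the neuronal list 0.988, against 0.873 over all gene bodies. The neurotransmitter receptor, adhesion and leiomyosarcoma lists gave fewer, 0.687, 0.596 and 0.454.

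Common fragile site genes, very long genes that break under replication stress, held regions thinly for their length, as they did all called regions. An inhibitor-only region lay in the body of 10 of 30 (33.3%), and ESRRG, an orphan nuclear receptor gene, had 1 at an end. Their bodies gave 0.340 inhibitor-only regions per Mb, against 0.873 over all gene bodies, and 19.95 union regions per Mb, against 56.94. Inhibitor-only regions were 1.71% of the union regions in these bodies and 1.53% of those in all gene bodies. PDE4D, a cyclic AMP phosphodiesterase, had folds of 5.46 and 5.01 in OTS186935 and 6.78 and 6.30 in the combination, and its stronger region lay 0.44 kb from both a doxorubicin and a DMSO peak. CSMD1 and AUTS2 also held 2 each, and DMD, the dystrophin gene, held 1 with 4.30 in OTS186935 and 4.15 in the combination. Among all genes of 500 kb or more the share with a region in the body was 28.0%.

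Inhibitor-only regions were spread over all chromosomes in rough proportion to what was called there. As a share of a chromosome's union regions they ran from 0.921% on chromosome 13 (14 of 1520, 0.504 to 1.54%) to 1.98% on chromosome 21 (35 of 1772, 1.38 to 2.74%), around 1.55% overall. Chromosome 10, with 123 of 6479 (1.90%, 1.58 to 2.26%), and chromosome 13 were the 2 whose interval did not include that value among 23 chromosomes. Per Mb they were densest on chromosomes 19 and 17, with 1.26 and 1.25 regions, and thinnest on chromosome 13, with 0.122, and all union regions had the same order, with 93.2, 73.0 and 13.3 per Mb. In the outermost Mb of chromosomes they were 1.18% of union regions (55 of 4675, 0.887 to 1.53%), in the next 1.43%, and from 1.48 to 1.66% in each band further inside. The outermost 5 Mb held 14.4% of them, against 15.7% of all union regions, and with lists of equal length 17.2% against 16.4%.

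**Figure D4:**
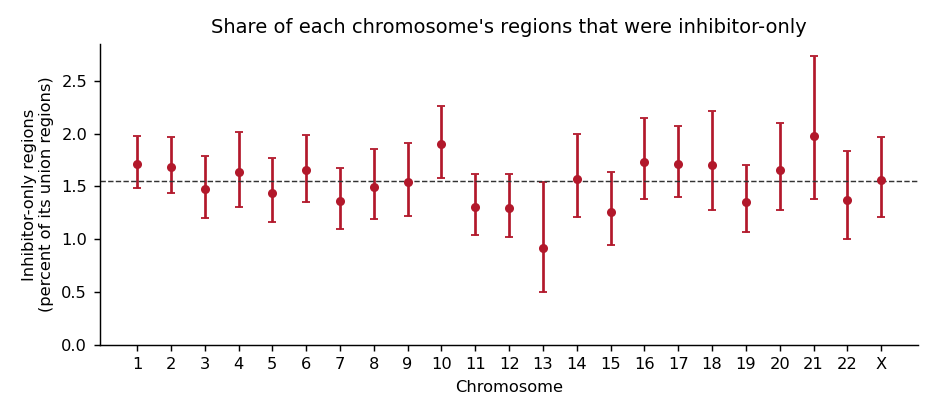
Inhibitor-only regions as a percent of all union regions on each chromosome, with exact 95% binomial intervals as bars; the dashed line is the 1.55% over all chromosomes. Chromosome 13 lies lowest at 0.921% and chromosome 21 highest at 1.98%, and most intervals include the line.

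Of the 1924 regions, 1139 (59.2%) shared a 1 Mb window with another inhibitor-only region. Of the windows, 785 held 1 inhibitor-only region, 272 held 2, 96 held 3, 50 held 4, 13 held 5 and 7 held 6. Of the 7, chr9:94000001-95000000, with AOPEP, an aminopeptidase gene, had the lowest number of union regions, 58, followed by chr10:44000001-45000000, with RASSF4 and TMEM72, at 72. The others lay on chromosomes 2 over GLI2, a transcription factor of hedgehog signalling, 5 over ATP6V0E1, a proton pump subunit, 10 over ADARB2, 19 over ARHGEF1 and BCKDHA, and 6 from 27 to 28 Mb, where no inhibitor-only region overlapped a protein-coding gene body. The windows with 6 held between 58 and 135 union regions.

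Peaks of the libraries without OTS186935 were mostly nearby. The median distance from an inhibitor-only region was 13364 bp to the nearest doxorubicin peak and 7860 bp to the nearest DMSO peak. A doxorubicin or DMSO peak lay within 1 kb of 246 regions (12.8%, 11.3 to 14.4%), within 10 kb of 1270 (66.0%) and within 100 kb of 1901 (98.8%). In the doxorubicin counterpart, 184 of 1295 regions (14.2%, 12.4 to 16.2%) had an OTS186935 or DMSO peak within 1 kb. With lists of equal length the share near a doxorubicin or DMSO peak was 7.34%, and with −log10 q of 5 or more it was 3.68%. Without the 246 regions, 1678 inhibitor-only regions remained, of which 5.96% lay at gene ends and 56.1% in gene bodies.

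**Figure D5:**
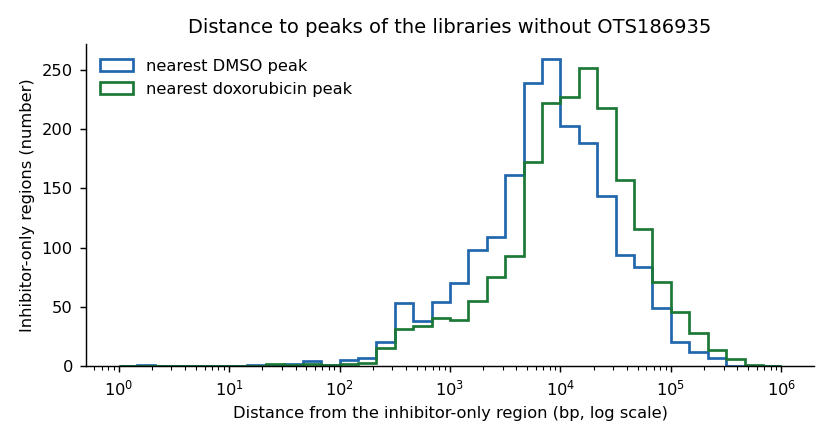
Number of inhibitor-only regions by the distance in bp (log scale) to the nearest doxorubicin peak (green) and the nearest DMSO peak (blue). Both distributions centre on distances of kilobases, with medians of 13364 bp for doxorubicin and 7860 bp for DMSO.

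The floor of the local background was close between libraries while list length was not. It was 0.397 fragments for OTS186935, 0.428 for the combination, 0.389 for doxorubicin and 0.454 for DMSO. The total number of reads is unknown. The floor is only a rough guide to relative depth, because the options of the peak calling and any input library are not given. The fewest fragments at a called summit were 3 for OTS186935, 4 for the combination, 3 for doxorubicin and 3 for DMSO, and the lowest −log10 p was 2.81, 3.08, 2.92 and 2.74 in that order. When the strictest of these limits was applied to every list, 1995 regions were inhibitor-only, and 1873 of the 1924 were among them. At a −log10 q of 5 or more in each list there were 190, of which 37 were among the 1924; the other 153 held a doxorubicin or DMSO peak below that limit.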

How the data were processed

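γH2AX ChIP-seq peak lists of 4 libraries were analysed, 1 per condition. Build hg38, MACS2 2.2.7.1, Bowtie2 2.4.2, bedtools 2.30.0 and Picard 2.25.3 are listed in the submitters' processing notes; how they were run, and whether an input library was used, is not given in the sources used here. For every summit, 1 deposited row gives the authors' fold (a ratio), −log10 p, −log10 q and score. The fragments at each summit were solved by taking the fold as (fragments + 1) over (background + 1) and p as Poisson, and a whole number of fragments matched the −log10 p within 0.002 for 100% of rows; a second whole number also did in 423 to 2109 rows per list. Rows outside chromosomes 1 to 22 and X, 58 to 90 per list, were left out. Gene positions and promoters came from RefSeq tables of GRCh38.p14 (19974 protein-coding genes, 15812 with a promoter), and no genome sequence was used. The regions, the 20 gene lists and the measures were chosen with earlier results of these data known. Genes were named by rank, by number of regions in the body and as list members; examples among overlapped promoters and among genes without other peaks were picked after their values were seen. Alternatives were limits on −log10 q and p, equal list length, joining within 1 kb, reciprocal overlap, all contigs and other windows. Python 3.11.15, pandas 2.3.3, scipy 1.17.1 and matplotlib 3.10.9 were used.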

Additional observations from a re-analysis of the deposited data

How the results depend on the processing

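The number of inhibitor-only regions was 1924 as reported, 1995 with the common −log10 p limit of 3.08, 2165 with lists of equal length (ties broken by fold and then at random with a fixed seed), 1854 with rows within 1 kb joined, 1559 with a reciprocal overlap of 50%, 1926 on all contigs, and 190 with a −log10 q of 5 or more in each list. Leaving out regions with a doxorubicin or DMSO peak within 1 kb, chosen after seeing the data, gave 1678. As a share of regions called in exactly 2 lists, the 6.91% became 3.55% at a −log10 q of 5, 7.45% with the common −log10 p limit, 15.0% at equal length, 5.60% with the reciprocal overlap and 6.02% without near peaks. The 6.70% at gene ends became 11.6% at a −log10 q of 5, 10.3% at equal length, 12.4% with windows of 2.5 kb and 3.74% at transcription starts only. The 55.7% in gene bodies became 51.1% at a −log10 q of 5, and the 14.4% in the outermost 5 Mb became 17.2% at equal length. The 12.8% with a doxorubicin or DMSO peak within 1 kb became 3.68% at a −log10 q of 5, 7.34% at equal length and 66.0% within 10 kb. Joining rows within 1 kb leaves no such peak by construction. The settings of equal length and of −log10 q drop peaks, and the wider windows and distances add regions, by construction; beyond that, the cause of these shifts was not tested. No paired analysis was possible because each condition had 1 library. With medians of 6 and 7 fragments per summit, a peak called in 1 library and not in another can differ by few fragments. The read depth of the libraries is not known, and their background floor is only a rough guide to it.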
